A study of Mus musculus with 7 samples.

Results

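Foxf1 Hand2 mesenchymal cells are neural crest cells of the mouse pharyngeal and outflow tract region at embryonic day 10.5 (E10.5) that hold transcripts of both Foxf1 and Hand2. They were chosen in 4 libraries by their own counts of unique molecular identifiers (UMIs, each tagging 1 captured transcript): at least 1 Foxf1 UMI, at least 1 Hand2 UMI, no Sox10 UMI, and not both Acta2 and Tagln at 3 UMIs or more. A cell was kept when 1000 genes or more were detected and no more than 10% of its UMIs were mitochondrial. The rule found 1788 cells of 33369 kept, with 483 of 7351 in control 1, 754 of 10259 in control 2, 355 of 8820 in null 1 and 196 of 6939 in null 2. Of the 1788, 1749 also held at least 2 UMIs over Twist1, Prrx1 and Prrx2, genes of mesenchymal crest. The other cells with at least 2 such UMIs, 15778 in all, are called other mesenchymal cells here and are the main comparison. Foxf1, Hand2, Sox10, Acta2 and Tagln chose the members and Twist1, Prrx1 and Prrx2 chose the comparison cells, so none of these genes was tested between them.

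The study used sorted EGFP cells of embryos on a mixed Swiss-Webster background in which Wnt1-Cre, active in the neural crest from its origin in the dorsal neural tube, switched on a ROSA-EGFP reporter. The controls are labelled Wnt1-Cre/+;ROSA-EGFPf/+. Libraries titled Tbx1 null carry the genotype label Wnt1-Cre/+;Tbx1+/-;ROSA-EGFPf/+, so title and genotype label differ. The study's own list of libraries gives them as Tbx1-/-, and they are called null here. Each library was a pool of embryos, and the library is the replicate (n = 2 per genotype). The tissue labels are worded differently by genotype, arches 2 to 6 with heart in the controls and below arches 1 with heart in the null libraries, but by the study's methods the dissection was the same, with head and arch 1 removed. The null 1 library was made with kit v3 and the other 3 with v3.1, and control replicate 2 has R1 in its title beside "replicate 2". By the study's list of libraries, null 1 embryos also had fewer somites than those of the other libraries, and null pools held fewer embryos.

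Foxf1 encodes a forkhead transcription factor best known from the splanchnic mesoderm, where it responds to hedgehog ligands from the endoderm. Hand2 and its relative Hand1 encode basic helix-loop-helix factors of the arches and the heart. Crest cells that enter the arches follow chemokine, endothelin and semaphorin cues, become patterned by Dlx, Hand and Hox genes, and in the outflow tract form the septum and part of the smooth muscle of the great arteries. Hedgehog signalling is read from its own targets: ligand binds the receptor Ptch1, this frees Smo, and GLI factors then raise Ptch1, Gli1 and Hhip, which feed back on the pathway.

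The 4 libraries held 146254671 to 197398510 UMIs over all barcodes, and the members' summed counts ranged from 5249907 UMIs in null 2 to 14046720 in control 2. Median depth per member was 22053 and 17149 UMIs in the controls and 28289 and 24009.5 in the null libraries, against 23317, 16938, 24768.5 and 22511.5 in other mesenchymal cells of the same libraries. Between 17 and 39 barcodes were shared by a pair of libraries, none of them members in both. Doublet calling marked 226 of the members, 59 and 112 in the controls and 35 and 20 in the null libraries, and these were kept. By library this was 12.2%, 14.9%, 9.86% and 10.2% of members, and 12.1%, 13.0%, 12.4% and 10.7% of other mesenchymal cells. Without doublets, 6723 of 7351, 9163 of 10259, 8058 of 8820 and 6505 of 6939 kept cells remained. The called part of all kept cells was thus smaller than that of members in every library. Levels are given as CPM, the gene's UMIs over the members of a library, divided by all their UMIs and scaled to 1000000. Libraries stood apart. Of 6650 genes at 20 CPM or more in a library's members, 75 (1.13%) differed over 2-fold between the controls and 368 (5.53%) between the null libraries.

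Tbx1, the targeted gene, was counted in all 4 libraries. In the Foxf1 Hand2 cells it stood at 18.3 and 9.97 CPM in the controls and 7.81 and 31.6 CPM in the null libraries, so the null libraries lay on both sides of the controls. In other mesenchymal cells it stood at 6.95, 4.91, 5.51 and 4.08 CPM in controls 1 and 2 and nulls 1 and 2, in that order. It was found in 19.7%, 10.6%, 10.1% and 26.5% of members. By immunostaining, the paper reports no noticeable TBX1 in crest cells and places it in adjacent mesoderm. Those are protein stains and these are transcript counts, and the source of the UMIs was not tested. Transcript of a null allele can still be counted by a 3' tag, and the part deleted is not given in the labels, so these counts do not check the genotype.

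Many members lay close to the threshold. Exactly 1 Foxf1 UMI was held by 631 of 1788 members (143, 352, 93 and 43 by library), and 124 members held exactly 1 UMI of both genes. At least 2 UMIs of both were held by 995 members. Just outside, 808 kept cells held Foxf1 but no Hand2 UMI, 90 with both genes held a Sox10 UMI, and 66 were removed as smooth muscle cells. By library the cells removed for Sox10 were 10 of 510 with both genes, 16 of 791, 26 of 400 and 38 of 243, a larger part in the null libraries. The median member held 3, 2, 3 and 4 Foxf1 UMIs and 4, 4, 5 and 4 Hand2 UMIs in the same order of libraries.

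Free RNA can put a UMI into a cell that does not make it, so cells with a Sox10 UMI served as a reference. Hand2 was found in 14.15% and 18.15% of these Sox10 cells in the controls and 17.99% and 21.76% in the null libraries. In kept cells without a Sox10 UMI the values were 23.25%, 35.57%, 16.64% and 13.06%. Doublet calling marked 10.9% to 20.1% of Sox10 cells by library. Whether Sox10 cells make Hand2 themselves was not tested, so their share with both genes is not a measured rate of free RNA. Both Foxf1 and Hand2 UMIs were found in 3.14% and 1.98% of Sox10 cells in the controls and in 1.49% and 2.91% in the null libraries, at median depths of 18836 to 26749.5 UMIs. The members' share of all kept cells was above this in control 1, control 2 and null 1. In null 2 it was not: 2.82% of kept cells were members and 2.91% of Sox10 cells held both genes. Kept cells include those with a Sox10 UMI, 18.8% of them in null 2, which cannot be members, so these shares have unlike denominators. With at least 2 UMIs of both, the shares were 3.82%, 3.28%, 2.72% and 1.99% of kept cells as members against 2.20%, 0.617%, 0.920% and 1.76% of Sox10 cells. At that threshold the members' share was the higher in every library, null 2 included. A share over kept cells without Sox10 UMIs was not computed, and it would lie above the share over all kept cells. For null 2 under the rule itself, 2.82% and 2.91% therefore do not decide whether members exceed the share in Sox10 cells. Marker genes are given below library by library.

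The label of outflow tract mesenchyme was compared with its markers. Hand1 stood at 79.5 and 75.7 CPM in the controls and 62.3 and 126 CPM in the null libraries in the members and at 18.8, 22.6, 8.31 and 12.3 CPM in other mesenchymal cells, in the same order. Ptch1 stood at 197 and 238 CPM in the controls and 120.4 and 216 CPM in the null libraries against 50.6, 56.5, 26.2 and 38.2 CPM, and the chemokine gene Cxcl12 at 271 and 306 CPM in the controls and 319.8 and 445 CPM in the null libraries against 106, 127, 98.1 and 137 CPM. All 3 were higher in the members of every library, null 2 included. They were proposed as markers of these cells, so the values are a description. Isl1 and Gata3, outflow tract factors not used to choose the cells, were higher as well. Other genes were mixed for a purely outflow tract label. Members of the controls and null 1 held the arch genes Barx1 and Dlx5. Barx1 stood at 289.8, 208, 309 and 15.6 CPM and Dlx5 at 43.2, 30.9, 89 and 2.67 CPM. Dlx5 was however found in a smaller share of control members (32.7% and 23.2%) than of other mesenchymal cells (44.3% and 40.2%). Of 18 arch patterning genes 3 were higher and 10 lower in the members. The cardiac factors Gata4, Gata5 and Tbx20 were at or below 3.43 CPM in every library. The paper describes these in outflow tract cells with Acta2 and Tagln, by which the rule removed cells. Nkx2-5 and Gata6 were higher than in mesenchymal cells without Sox10 or that muscle gate (log2 fold change 3.94 and 2.35). The cells are therefore called Foxf1 Hand2 cells after the genes that chose them.

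Members made up 6.57% (95% Clopper-Pearson interval 6.01 to 7.16) and 7.35% (6.85 to 7.87) of kept cells in the controls and 4.02% (3.62 to 4.46) and 2.82% (2.45 to 3.24) in the null libraries. The intervals cover counting error only. Both null libraries lay below both controls, at a mean of 3.42% ± 0.85 against 6.96% ± 0.55 (SD, n = 2), a ratio of 0.492. The exact two-sided permutation test over 4 libraries gave p = 0.333, the smallest it allows. In edgeR on the cell counts of 6 classes the log2 fold change was -1.02 (SE 0.41, adjusted p = 0.043). The share of cells with a Sox10 UMI, which are in the same denominator, moved the other way, from 6.11% to 19.3% on average (adjusted p = 0.011 in edgeR). Mesenchymal cells with Hand2 but no Foxf1 UMI fell as well, from 18.5% to 6.72% (log2 fold change -1.46, adjusted p = 0.012 in edgeR). Smooth muscle cells fell from 1.45% to 0.661% (-1.14, adjusted p = 0.043 in edgeR). The remaining mesenchymal cells and all other cells were not called (adjusted p = 0.17 and 0.19 in edgeR).

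Over mesenchymal cells alone the members' share was 12.8% and 9.85% in the controls and 9.76% and 7.83% in the null libraries (log2 fold change -0.36, adjusted p = 0.28 in edgeR), and control 2 then lay close to null 1. After each cell was thinned to 5000 UMIs the shares of kept cells were 2.48%, 2.67%, 1.32% and 1.27% (log2 fold change -0.99, adjusted p = 0.034 in edgeR), while those of mesenchymal cells were 6.11%, 4.13%, 4.30% and 5.89% and overlapped. The call also rested on both null libraries: it was lost without null 1 (-1.30, adjusted p = 0.20 in edgeR) and without null 2 (-0.79, adjusted p = 0.40). It was likewise lost with doublets removed (-0.99, adjusted p = 0.067 in edgeR), with the cell filter at 200 genes and 5% mitochondrial UMIs (-0.78) and with at least 2 UMIs of both genes (-0.59), where the ratio of the means was 0.664. Null 1 differs from the rest in kit and in its lower somite count.

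**Figure D1:**
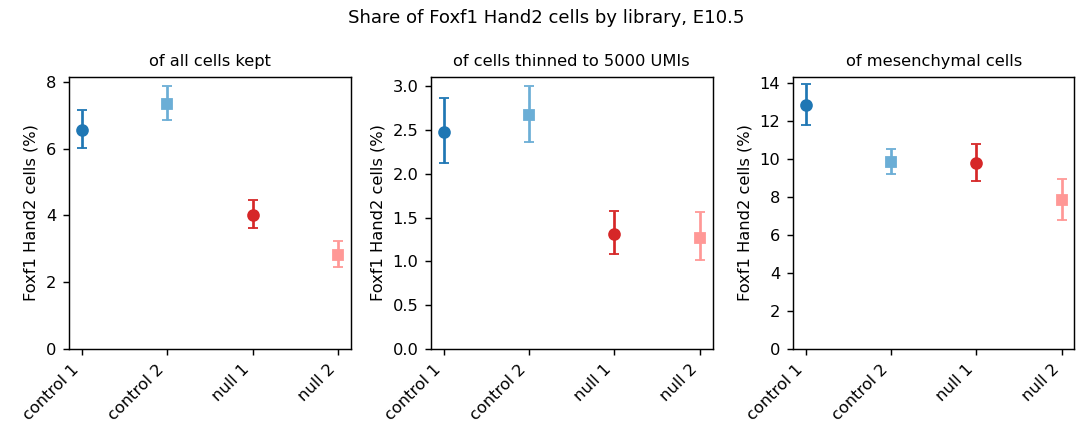
Share of Foxf1 Hand2 cells in each of the 4 libraries, in percent, of all kept cells, of kept cells after thinning to 5000 UMIs, and of mesenchymal cells; points are libraries and bars are 95% Clopper-Pearson intervals. The controls at 6.57% and 7.35% lie above the null libraries at 4.02% and 2.82% in the first panel, and over mesenchymal cells control 2 (9.85%) and null 1 (9.76%) lie side by side.

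The main comparison asked what else is particular in level to cells with Foxf1 and Hand2 among the crest mesenchyme of the same library. Members were set against the other mesenchymal cells of each library with edgeR's quasi-likelihood test and the library as a block, over 14472 genes. Of these 2693 passed an adjusted p under 0.05, 18.6% of those tested, with 1241 (8.58%) higher and 1452 (10.0%) lower in the members. In null 2 the members' share of all kept cells, Sox10 cells included, was not above the share of Sox10 cells with both genes. Without null 2, 1749 passed, 834 higher and 915 lower. Counts for each gene list below can be read against these percentages. The comparison cells include cells with Sox10 UMIs and smooth muscle cells, which the rule kept out of the members, so each list the rule could bear on was also set against mesenchymal cells without Sox10 UMIs and outside the smooth muscle gate, a comparison added after the data were seen.

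Of 22 outflow tract transcription factors tested, 12 were higher in the members (Hand1 among them) and 2 were lower, with a median log2 fold change of 0.60 against 0.006 over all genes. Foxf2, a forkhead paralog of Foxf1 at chr13:31625816-31631403 (mm10), stood at 31.1 and 25.7 CPM in the controls and 26 and 45.9 CPM in the null libraries in the members and at 3.27 to 5.84 CPM in the other cells (log2 fold change 2.88, SE 0.08, edgeR adjusted p = 8.5e-07). Isl1, a LIM homeodomain factor of heart progenitors, stood at 71 and 74.8 CPM in the controls and 58.8 and 131 CPM in the null libraries against 14.6, 16.1, 12.9 and 56.6 CPM (log2 fold change 1.98, SE 0.16, edgeR adjusted p = 0.00013). Every library's members lay above its own comparison cells, although null 2 was highest in both. Isl2, its paralog, stood at 19.5 and 20.2 CPM in the controls and 8.36 and 27 CPM in the null libraries against 1.21 to 5.48 CPM (log2 fold change 2.92, SE 0.17, edgeR adjusted p = 2.4e-05). Gata3, a zinc finger factor, stood at 41.1 and 38.4 CPM in the controls and 38.9 and 61.3 CPM in the null libraries against 12.9 to 16.9 CPM (log2 fold change 1.54, SE 0.09, edgeR adjusted p = 2.7e-05), and its groups did not overlap.

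The forkhead genes lay in pairs. Foxc2 at chr8:121116171-121118895 lies near Foxf1 at chr8:121084386-121088144, and Foxc1 at chr13:31806633-31812476 lies near Foxf2. Foxc1, needed for the outflow tract and arch arteries, stood at 84.7 and 78.6 CPM in the controls and 89.2 and 109 CPM in the null libraries against 21.7 to 40.2 CPM (log2 fold change 1.45, SE 0.18, edgeR adjusted p = 0.0011). Foxc2 differed less, at 19.8, 20.2, 26.9 and 23.8 CPM against 13.3, 12.6, 9.79 and 11.5 CPM (log2 fold change 0.94, SE 0.15, edgeR adjusted p = 0.003), and after thinning its call was lost (0.46, adjusted p = 0.23 in edgeR). Sox9, a factor of cartilage and cushion mesenchyme, was higher at 192 and 203 CPM in the controls and 122 and 278 CPM in the null libraries against 53.9 to 109.6 CPM (log2 fold change 1.26, SE 0.14, edgeR adjusted p = 0.0005). Members of all libraries thus exceeded the other cells in 4 forkhead genes, Foxf1 by the rule and Foxf2, Foxc1 and Foxc2 by the test.

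Among factors at lower levels, Nkx2-5, a cardiac homeodomain factor, was at 5, 5.05, 2.79 and 22.5 CPM against 0.334 to 1.89 CPM (log2 fold change 3.0, SE 0.23, edgeR adjusted p = 9.1e-05), with null 2 far above the rest. Prdm6, a regulator of smooth muscle, was at 10.8, 7.76, 5.39 and 21 CPM against 2.52 to 5.57 CPM (1.52 on the log2 scale). Meis2 was higher by 0.45. Tbx3 passed at 0.30, a call lost with doublets removed (0.23), after thinning (0.059, adjusted p = 0.92 in edgeR), with at least 2 UMIs of both Foxf1 and Hand2 (0.15) and without control 1, control 2 or null 1. The 2 factors that were lower are BMP-responsive homeobox genes. Msx1 stood at 41.9 and 28.5 CPM in the controls and 80.1 and 52.8 CPM in the null libraries against 142, 99.1, 256 and 229 CPM (log2 fold change -1.81, SE 0.07, edgeR adjusted p = 2.9e-06), and Msx2 changed by -0.83 (SE 0.10). Gata6 missed the threshold (log2 fold change 0.74, SE 0.22, edgeR adjusted p = 0.051). Set against mesenchymal cells without Sox10 UMIs and outside the smooth muscle gate, Gata6 was higher by 2.35 (adjusted p = 3.3e-06 in edgeR).

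The hedgehog list had 5 of 11 tested genes higher (Ptch1 among them) and 2 lower, with a median of 0.18. The promoters of 2 of its feedback genes, from RefSeq on GRCm38.p6, are shown because both genes were higher in the members of every library; each covers 250 bases before the start site. Capitals mark a window with the fewest mismatches to the GLI motif GACCACCCA on either strand. In the Ptch1 promoter other windows are equally close. The Ptch1 promoter, chr13:63565736-63565985 on the minus strand, begins from a start inside the longer annotated gene (chr13:63508328-63573598), and the Hhip promoter is chr8:80058009-80058258 on the minus strand.
Ptch1: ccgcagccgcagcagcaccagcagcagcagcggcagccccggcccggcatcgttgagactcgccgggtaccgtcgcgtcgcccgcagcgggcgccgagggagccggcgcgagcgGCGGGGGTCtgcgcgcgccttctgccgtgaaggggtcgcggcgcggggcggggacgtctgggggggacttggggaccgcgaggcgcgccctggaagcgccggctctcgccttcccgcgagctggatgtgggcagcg
Hhip: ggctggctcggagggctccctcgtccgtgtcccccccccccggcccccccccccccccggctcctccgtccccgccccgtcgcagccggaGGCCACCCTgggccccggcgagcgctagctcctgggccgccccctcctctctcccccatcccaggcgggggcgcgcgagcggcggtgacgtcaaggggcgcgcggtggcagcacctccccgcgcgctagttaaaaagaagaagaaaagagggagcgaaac
The marked Ptch1 window differs from the motif at 3 positions, as close as in 98.6% of all 32851 promoters searched, and the Hhip window at 2, as close as in 51.8%. The exact motif was in 74 promoters (0.225%). A window of this closeness is thus common, and no site is inferred from it.

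Gli1, the transcriptional activator that hedgehog raises, stood at 17.8 and 18.4 CPM in the controls and 14.6 and 23.4 CPM in the null libraries in the members against 4.08 to 7.56 CPM (log2 fold change 1.74, SE 0.16, edgeR adjusted p = 0.00018). Hhip, which binds and sequesters ligand, stood at 14.9 and 18.5 CPM in the controls and 6.41 and 22.7 CPM in the null libraries against 1.81 to 4.63 CPM (log2 fold change 2.20, SE 0.15, edgeR adjusted p = 5.4e-05). Null 1 was the lowest for both Hhip and Ptch1, yet above every library of the comparison cells. Smo, the transducer, passed at 0.18 (SE 0.04), though not after thinning, without a filter on low counts or without control 1, and Gli2, Gli3 and Sufu did not pass, at -0.13, -0.08 and 0.19. The genes that were lower were co-receptors. Gas1 stood at 64.2 and 56.2 CPM in the controls and 55.3 and 62.5 CPM in the null libraries against 199 to 223 CPM (log2 fold change -1.82, SE 0.05, edgeR adjusted p = 8.5e-07), and Cdon changed by -1.02 (SE 0.11). Shh itself had 1 UMI in control 1 members, which is 0.0834 CPM, and none in the other 3 libraries, where 3 UMIs would be 0.214 to 0.571 CPM.

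**Figure D2:**
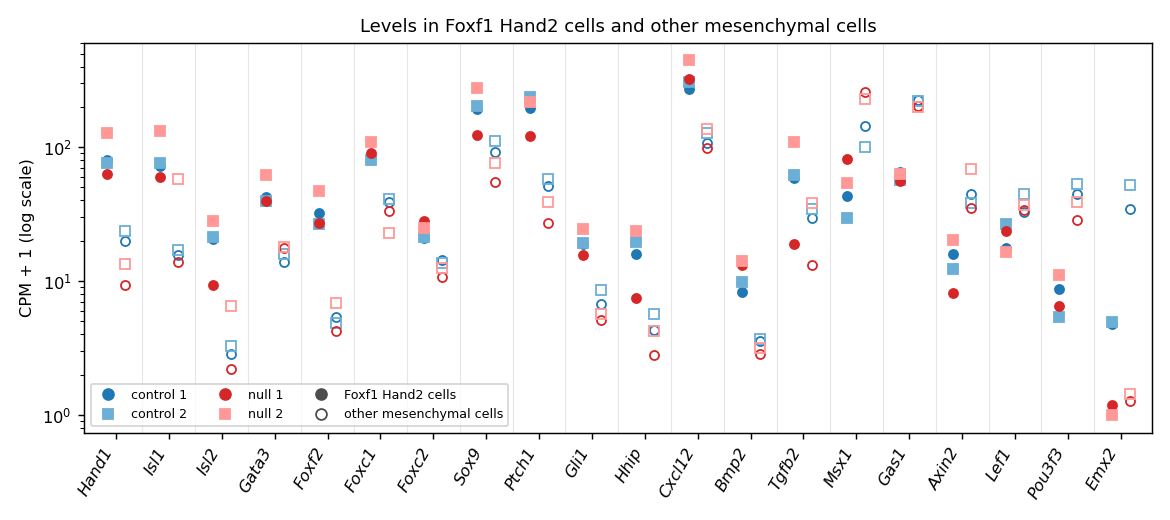
Levels of 20 genes in CPM plus 1 on a log axis; filled symbols are Foxf1 Hand2 cells and open symbols other mesenchymal cells, with 1 symbol per library. Filled symbols lie above open ones for Foxf2 (25.7 to 45.9 against 3.27 to 5.84 CPM) and Ptch1 and below them for Gas1 (55.3 to 64.2 against 199 to 223 CPM).

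BMP genes were split. Of 13 ligands, receptors and antagonists, 4 were higher and 4 lower. Bmp2, a secreted ligand, stood at 7.34 and 8.9 CPM in the controls and 12.3 and 13.1 CPM in the null libraries against 1.84 to 2.67 CPM (log2 fold change 2.14, SE 0.22, edgeR adjusted p = 0.0004). Bmp5 was higher by 1.37 and the receptor Bmpr2 by 0.45, whereas Bmp6 and Bmp7 changed by -2.77 and -1.93. After thinning Bmp5 and Bmp7 were not called (0.86 and -1.41, adjusted p = 0.23 and 0.28 in edgeR). Set against Hand2 cells without Foxf1, described below, 2 of the 13 were higher, Bmp2 and Bmpr2, and 0 lower. There Bmp6 was at -0.64 and Bmp7 at -0.11 (adjusted p = 0.56 and 0.90 in edgeR). The ligand Bmp4 passed at 0.48 but was -0.10 after thinning (adjusted p = 0.84 in edgeR), and its call was also lost with doublets removed and without null 2. Of 10 BMP targets, 4 were higher, among them the pseudoreceptor Bambi (log2 fold change 0.83, SE 0.10, edgeR adjusted p = 0.0011) and the inhibitory Smad6 and Smad7 (0.54 and 0.32), and Msx1 and Msx2 were lower. Smad6 was not called after thinning (adjusted p = 0.099 in edgeR).

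FGF feedback genes gave 5 lower and 0 higher of 10. Dusp6, a phosphatase that ERK signalling induces, stood at 16.3 and 16.9 CPM in the controls and 20.4 and 9.33 CPM in the null libraries against 31.5, 36.5, 35.8 and 17.4 CPM (log2 fold change -0.94, SE 0.08, edgeR adjusted p = 0.00011), so that null 2 was lowest in both classes. Myc changed by -1.30, Spry2 by -0.56 and Spry4 by -0.87, the last not called without control 2 or with at least 2 UMIs of both Foxf1 and Hand2. Etv4, Etv5, Spred1 and Spred2 did not pass, with log2 fold changes from 0.12 to 0.29. The receptor Fgfr2 was higher, at 58, 57, 31.6 and 53.3 CPM against 25 to 29.9 CPM (log2 fold change 0.90, SE 0.11, edgeR adjusted p = 0.0011), and Fgfr3 was lower, with a log2 fold change of -1.12, a call lost after thinning and without control 1, null 1 or null 2.

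Guidance and recruitment signals, other than Cxcl12, were lower or not called: 8 of 15 were lower and Cxcl12 was the 1 higher, with a median of -0.61. Cxcr4, its receptor, stood at 1.08, 0.498, 1.58 and 2.29 CPM against 2.63, 1.29, 6.6 and 6.6 CPM (log2 fold change -1.60, SE 0.19, edgeR adjusted p = 0.00072), so ligand and receptor differed in opposite directions. Ednra, the endothelin receptor of arch crest, stood at 7.5, 8.9, 6.13 and 8.19 CPM against 14, 17.6, 8.2 and 10.5 CPM (log2 fold change -0.71, SE 0.13, edgeR adjusted p = 0.0063), not called without control 1. Kitl, a ligand for melanocyte and germ cell precursors, changed by -0.96 (SE 0.15). Sema3c, which guides crest into the outflow tract, did not pass (0.06, adjusted p = 0.95 in edgeR) and stood at 8.17, 7.62, 1.39 and 13 CPM, with null 1 low and null 2 high. Against Hand2 cells without Foxf1, described below, 3 of 14 genes of this list were lower and 1 higher, with a median of 0.045. Kitl was at -0.17 in that comparison (adjusted p = 0.70 in edgeR).

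Tgfb2, a ligand of cushion mesenchyme, was higher in the members, at 57.5 and 60.9 CPM in the controls and 17.8 and 109 CPM in the null libraries against 28.6, 33.8, 12.2 and 37 CPM (log2 fold change 1.02, SE 0.13, edgeR adjusted p = 0.001). The null libraries lay on both sides of the controls in each class. Of 9 TGF-beta and PDGF genes 2 were higher, Tgfb2 and Tgfbr1 (0.25), and Pdgfa was lower (-1.03), the last not after thinning (-0.29, adjusted p = 0.82 in edgeR). The call of Tgfbr1 was lost after thinning, without a filter on low counts, without control 2, null 1 or null 2, and against mesenchymal cells without Sox10 or the smooth muscle gate (adjusted p = 0.061 in edgeR). Compared with Hand2 cells without Foxf1, described below, 1 of 9 genes of this list was higher and 0 lower. Pdgfa was at -0.06 there (adjusted p = 0.89 in edgeR).

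Retinoic acid genes gave 2 higher and 6 lower of 11. Cyp26a1, which degrades retinoic acid, stood at 0.5, 2.56, 0.186 and 0.571 CPM against 12, 15.9, 13.3 and 8.11 CPM (log2 fold change -3.62, SE 0.33, edgeR adjusted p = 0.00021), and the members of every library lay below every comparison value. Crabp1, a binding protein, was lower, with a log2 fold change of -1.12, and in both classes the null libraries held more of it than the controls, at 179.8, 281, 507 and 639.6 CPM in the members. Dhrs3, which turns retinaldehyde back into retinol, was higher, at 7.17, 4.84, 4 and 15 CPM against 1.61 to 4.1 CPM (log2 fold change 1.61, SE 0.14, edgeR adjusted p = 0.00016). Aldh1a2, the synthesis enzyme, stood at 11.9, 10.04, 0.743 and 17.9 CPM and did not pass (1.19, adjusted p = 0.11 in edgeR), null 1 being far below the other 3 libraries.

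WNT genes gave 1 higher and 7 lower of 16. Axin2, a feedback target of the beta-catenin pathway, stood at 15 and 11.3 CPM in the controls and 7.16 and 19.4 CPM in the null libraries against 34.4 to 68.2 CPM (log2 fold change -1.79, SE 0.09, edgeR adjusted p = 1.2e-05). The nuclear effectors Lef1 and Tcf7 changed by -0.82 and -1.35, the feedback inhibitor Notum by -1.96 and the agonist Rspo3 by -0.97. Tcf7 was not called after thinning, nor Rspo3 with DESeq2 or without null 1. The secreted inhibitor Sfrp1 was the 1 gene of the list that was higher (0.43), a call lost without control 1, control 2 or null 2. Of 10 Notch genes, Notch3 was higher and 4 were lower, Heyl most at -2.46. Against mesenchymal cells without Sox10 or the smooth muscle gate Heyl was at -1.33 (adjusted p = 0.016 in edgeR). Notch1 changed by -0.68, not called after thinning (-0.47, adjusted p = 0.20 in edgeR). In the comparison with Hand2 cells without Foxf1, described below, 0 of 9 Notch genes were higher and 1 lower. Notch1 was at 0.02 there (adjusted p = 0.91 in edgeR). Of 14 WNT genes 2 were higher and 5 lower there, with Rspo3 at 0.46 (adjusted p = 0.31 in edgeR).

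Matrix genes gave 9 higher and 3 lower of 19, with a median of 0.25. Vcan, a proteoglycan of cardiac cushions, stood at 217 and 307 CPM in the controls and 93.1 and 317 CPM in the null libraries against 146, 215, 60.7 and 114 CPM (log2 fold change 0.80, SE 0.14, edgeR adjusted p = 0.0052). Fbn2, a microfibril gene, was higher by 0.77, the fibrillar collagen Col3a1 by 0.69 and the cartilage collagen Col2a1 by 0.77. Col9a2, another cartilage collagen and outside the list, stood at 33.8, 21.3, 6.04 and 35.4 CPM against 1.6 to 4.74 CPM (log2 fold change 2.54, SE 0.17, edgeR adjusted p = 4.6e-05). Null 1 was the lowest library for Vcan, Fbn2, Col3a1, Col2a1 and Col9a2. Col1a2, Fbln2 and Hapln1 were lower, at -0.72, -0.52 and -1.26. Against mesenchymal cells without Sox10 or the smooth muscle gate Hapln1 was at -0.50 and not called (adjusted p = 0.10 in edgeR).

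Hox genes, which mark axial level, were lower or not called: 12 of 14 were lower and 0 higher, with a median of -0.72. Hoxb4 stood at 18.9 and 20.5 CPM in the controls and 15.7 and 53.5 CPM in the null libraries against 32, 22.8, 36.2 and 108 CPM (log2 fold change -0.76, SE 0.14, edgeR adjusted p = 0.0057), and Hoxb3 changed by -0.68. Hoxa2, the selector of arch 2, did not pass (-0.09). Null 2 had the highest Hoxb4 in both classes. Against Hand2 cells without Foxf1, described below, 3 of 13 Hox genes were lower and Hoxb4 was at 0.03 (adjusted p = 0.91 in edgeR).

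Arch patterning genes gave 3 higher and 10 lower of 18. Gsc, a homeobox gene of the ventral arches, stood at 126 and 123 CPM in the controls and 26.8 and 65.3 CPM in the null libraries against 54, 59.4, 6.06 and 10.2 CPM (log2 fold change 1.65, SE 0.24, edgeR adjusted p = 0.0021). Barx1, also higher, was at 289.8, 208, 309 and 15.6 CPM against 183, 145, 60.5 and 11.6 CPM and its call was lost with DESeq2, after thinning, without control 1 and without null 2. Genes that were lower included Dlx1 (-0.95) and, further from 0, Pou3f3 and Emx2. Dlx2 passed at -0.64, but not with DESeq2 (adjusted p = 0.070) or without control 1, control 2 or null 2. Pou3f3 stood at 7.67 and 4.41 CPM in the controls and 5.48 and 10.1 CPM in the null libraries against 27.5 to 52.5 CPM (log2 fold change -2.64, SE 0.21, edgeR adjusted p = 0.0001). Emx2 stood at 3.75, 3.92, 0.186 and 0 CPM against 33.6, 51, 0.276 and 0.422 CPM (log2 fold change -3.43, SE 0.19, edgeR adjusted p = 1.7e-05), so its difference between classes came from the controls, and 3 UMIs in the null 2 members would be 0.571 CPM.

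Outside the lists, the genes with the largest rise by the rule included the imprinted genes Magel2 and Plagl1. Plagl1, a zinc finger factor, stood at 207 and 277 CPM in the controls and 78.7 and 260.2 CPM in the null libraries against 20.2 to 48.8 CPM (log2 fold change 2.41, SE 0.08, edgeR adjusted p = 1.9e-06). Magel2 changed by 2.71, the phospholipase Pla2g4a by 2.22 and the diacylglycerol kinase Dgkk by 2.16. Those with the largest fall included Hmx1, a homeobox gene of craniofacial crest, at 21 and 7.69 CPM in the controls and 1.12 and 2.29 CPM in the null libraries against 132, 102, 13 and 62.3 CPM (log2 fold change -3.31, SE 0.22, edgeR adjusted p = 4e-05), the WNT agonist Rspo1 (-3.46), and Wnt1 and Zic2 (-2.58 and -2.36), genes of the dorsal neural tube. Against mesenchymal cells without Sox10 UMIs and outside the smooth muscle gate these values were -3.40, -3.62, -2.75 and -2.50 for Hmx1, Rspo1, Wnt1 and Zic2.

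Of 12 proliferation genes 1 was higher and 0 lower, with Mki67 at 0.14 (SE 0.05) and Cdk1 at 0.18, the last not called after thinning or without a filter on low counts. Of 13 cell cycle inhibitors 1 was higher and 4 lower, Cdkn1a most at -2.07. Smooth muscle genes other than those of the gate gave 4 higher and 2 lower of 14. Rgs5, a pericyte and smooth muscle gene, stood at 55.6 and 55.7 CPM in the controls and 37.9 and 111 CPM in the null libraries against 7.74 to 17.9 CPM (log2 fold change 2.15, SE 0.15, edgeR adjusted p = 5.2e-05), and Des at 1.21, while Myocd and Myh11, the defining genes of mature smooth muscle, were at or below 0.285 CPM in the members. Among immediate early and heat shock genes, signs of dissociation stress, 0 were higher and 2 of 10 lower.

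Of 11 second heart field and splanchnic mesoderm genes 4 were higher and 1 lower. Osr1, a zinc finger factor, stood at 28.5 and 33.5 CPM in the controls and 7.71 and 36.4 CPM in the null libraries against 12.9, 10.5, 3.6 and 19.1 CPM (log2 fold change 1.24, SE 0.12, edgeR adjusted p = 0.00024), and Tbx1 was higher by 1.48 (SE 0.32), a call lost without control 1 (adjusted p = 0.057 in edgeR). Tbx5 and Wnt2, splanchnic mesoderm genes, were at or below 1.71 CPM. Of defining markers of other cell types, Cdh5 of endothelium had UMIs in null 1 only (0.0929 CPM), Csf1r and Tyrobp of macrophages had none (3 UMIs would be 0.214 to 0.571 CPM), Cdh1 of epithelium had UMIs in control 1 only (0.0834 CPM), and Myh7 of heart muscle in null 1 only (0.0929 CPM). The 8 haemoglobin and red cell genes summed to 0, 2.35, 0.0929 and 12 CPM, and 3 UMIs in control 1 would be 0.250 CPM. Whole lists were not at 0. The 8 endothelial genes summed to 34.1 to 36.6 CPM in the members and 31.4 to 37.3 in other mesenchymal cells, the 9 cardiomyocyte genes to 14.4 to 56.4 against 16.9 to 86.8, and the 8 pharyngeal epithelium genes to 27.5 to 86.7 against 24.5 to 46.3. Of the genes tested, 1 of 4 endothelial genes was higher (Pecam1, 0.89, not called without control 2 or null 2), and 2 of 8 cardiomyocyte genes were higher (Tnni1, 1.37, and Nkx2-5) and 4 lower. The part of such cells or transcripts in the results was not tested.

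Neural genes were all lower (8 of 8, median -1.39) and so were the 4 glial crest genes tested (median -2.55). Against mesenchymal cells without Sox10 or the smooth muscle gate the 8 neural genes were again lower (median -1.32), whereas 1 of the 4 glial genes was lower (median -0.081). Of 11 smooth muscle genes tested both ways 4 were higher and 1 lower against all other mesenchymal cells, and 8 higher and 0 lower against the restricted ones. Of 5 cardiomyocyte genes 2 were higher in each and the number lower went from 2 to 0. Their summed levels differed strongly between libraries. The 8 neural genes summed to 106 and 57.4 CPM in the members of the controls and 100.2 and 457 in the null libraries, and to 242, 97.1, 380.1 and 1142 in other mesenchymal cells. The 6 glial genes summed to 42.4, 11.7, 32.0 and 71.4 CPM in the members and 129, 45.5, 251 and 305 in the other cells. Null 2 was highest for both lists in both classes, and the part of these transcripts in the genotype values was not tested.

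**Figure D3:**
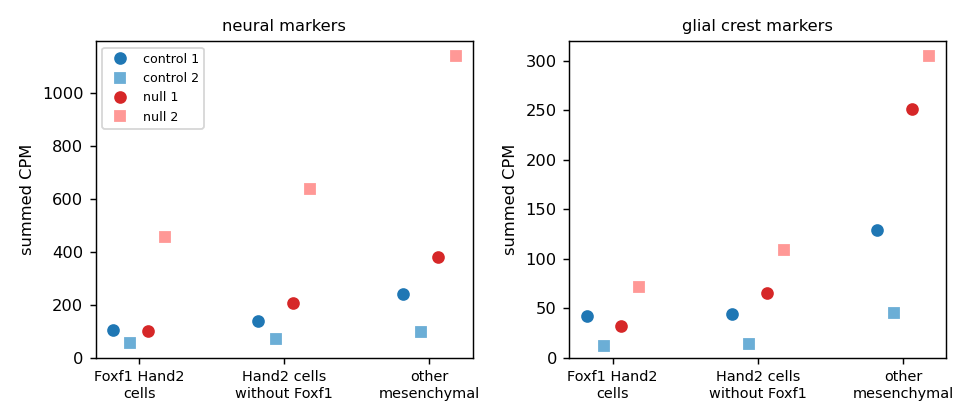
Summed CPM of 8 neural and 6 glial crest marker genes in Foxf1 Hand2 cells, Hand2 cells without Foxf1 and other mesenchymal cells, with 1 point per library and vertical axes that start at 0. Null 2 lies highest in every class, with 457 neural CPM in the Foxf1 Hand2 cells against 57.4 to 106 in the other 3 libraries.

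The most like group is mesenchymal cells with Hand2 but without a Foxf1 UMI, 4487 in the 4 libraries. A Foxf1 UMI can be missed in a shallow cell, so this group can hold cells of the same kind. Of 12629 genes tested 1323 passed (10.5%), 767 higher (6.07%) and 556 lower (4.40%) in the Foxf1 Hand2 cells. Outflow tract factors gave 12 higher (Hand1 among them) and 4 lower of 21, and the hedgehog list 4 higher and 2 lower of 11. Foxf2 stood at 31.1, 25.7, 26 and 45.9 CPM against 1.91, 3.53, 0.847 and 1.94 CPM (log2 fold change 3.70, SE 0.24, edgeR adjusted p = 6.4e-06). Shisa2, an inhibitor of FGF and WNT receptor maturation, stood at 48.9, 51, 53.6 and 62.3 CPM against 10.03, 10.2, 10.2 and 11.9 CPM (log2 fold change 2.32, SE 0.06, edgeR adjusted p = 1e-08), with little spread between libraries. Isl1, Isl2, Gata3 and Sox9 were higher by 1.76, 2.95, 0.81 and 1.79, and Ptch1 by 2.30. Among the largest rises by the rule were also Foxd2, another forkhead gene (2.18), the membrane protease gene Mme (2.26) and Rgs5 (1.96).

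Genes that were lower against the Hand2 cells without Foxf1 were again Msx1 and Gas1. Msx1 stood at 28.5 to 80.1 CPM against 175, 169, 370.4 and 315 CPM (log2 fold change -2.35, SE 0.08, edgeR adjusted p = 6.5e-08), and Gas1 at 55.3 to 64.2 CPM against 199, 182, 188 and 217 CPM (log2 fold change -1.74, SE 0.04, edgeR adjusted p = 9.1e-09). Msx2, Dkk1, Lef1 and Axin2 changed by -1.60, -1.44, -1.41 and -1.37. Matrix genes gave 10 higher and 1 lower of 19, smooth muscle genes 5 higher and 0 lower of 11, and proliferation genes 1 higher and 0 lower of 12. The epithelial keratins Krt8 and Krt18 were higher (1.21 and 1.18), while Epcam did not pass (0.23) and Cdh1 was at or near 0. Several genes that differed from other mesenchymal cells did not pass here: Gsc was at 0.12 (adjusted p = 0.56 in edgeR), Bambi at -0.03 (0.88), Smad7 at 0.06 (0.44), Cxcr4 at -0.39 (0.41) and Emx2 at -0.77 (0.058). After thinning Gsc passed (0.37, adjusted p = 0.013 in edgeR), and Emx2 passed without null 1 and without a filter on low counts. Smad6 was higher (0.50) and Tbx3 lower (log2 fold change -0.42, SE 0.09, edgeR adjusted p = 0.013), neither called after thinning, nor Tbx3 without control 1.

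Smooth muscle cells, here all 361 kept cells without a Sox10 UMI and with at least 3 UMIs of both Acta2 and Tagln, 66 of which also held Foxf1 and Hand2, were compared as well. Of 11217 genes 4566 passed (40.7%), 2245 higher (20%) and 2321 lower (20.7%) in the Foxf1 Hand2 cells. All 13 smooth muscle genes tested were lower, which the gate fixes in part. Proliferation genes gave 11 higher and 1 lower of 12, with Mki67 at 209, 306, 144 and 201 CPM against 99.6, 141, 72.8 and 114 CPM (log2 fold change 1.05, SE 0.08, edgeR adjusted p = 1.7e-06). Matrix genes gave 2 higher and 14 lower of 19 and arch patterning genes 11 higher and 0 lower of 14, with Gsc at 126, 123, 26.8 and 65.3 CPM against at most 14 CPM (log2 fold change 3.69, SE 0.20, edgeR adjusted p = 1.2e-07). Gata4, Gata6 and Tbx20, cardiac factors, were lower, with log2 fold changes of -5.87, -3.87 and -6.36, and so was Tgfb2 (-2.47). The largest rises by the rule included Osr1 and the transcriptional cofactor Cited1 (2.54 and 2.41), and the largest falls included the muscle genes Ankrd1, Actc1 and Acta1 (-11.12, -8.42 and -8.33) and the adhesion gene Icam2 (-8.92). Heart muscle transcripts were part of that group: 9 cardiomyocyte genes summed to 319 to 2278 CPM there and to 14.4 to 56.4 CPM in the members.

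The members were not uniform. The first principal component of log-normalised counts, computed per library, took up 2.80%, 1.99% and 2.65% of the variance in control 1, control 2 and null 1, and in each it had Isl1, Isl2, Hand1, Sparc and Tgfb2 at 1 end and Barx1 and Dlx5 at the other. Its scores correlated with log10 UMIs (Pearson r over cells of -0.35, -0.54 and 0.31, given as a description), so depth moved with it. High scores marked the Isl1 end in the controls and the Barx1 end in null 1, so cells toward the Barx1 end were deeper in each. In null 2 the first component (3.71%) was led by neuronal genes such as Tubb3, Elavl3 and Dcx. Cell cycle genes led the second component in control 1, control 2 and null 2.

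The split was also seen after thinning to 5000 UMIs, in 1772 members deep enough. Barx1 was found in 5.34%, 5.71% and 10.3% of Isl1 members against 42.6%, 31.2% and 44.4% of members without Isl1 in control 1, control 2 and null 1. In null 2 the values were 7.14% and 5.36%, with Barx1 near 0 in both. Hand1 was found in 48.9%, 47.1%, 41.2% and 48.8% of Isl1 members and in 15.7%, 18%, 10.2% and 32.1% of the others, in the usual order of libraries. Gata3 and Isl2 went the same way in all 4 libraries, Gata3 at 29.4% to 37.4% against 10.7% to 17.8%. Gsc was found in 51.1% and 50.0% of Isl1 members against 34.5% and 34.4% in the controls, but in 5.88% against 14.8% in null 1 and 25% against 23.2% in null 2. These are shares of cells within a library and were not tested.

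**Figure D4:**
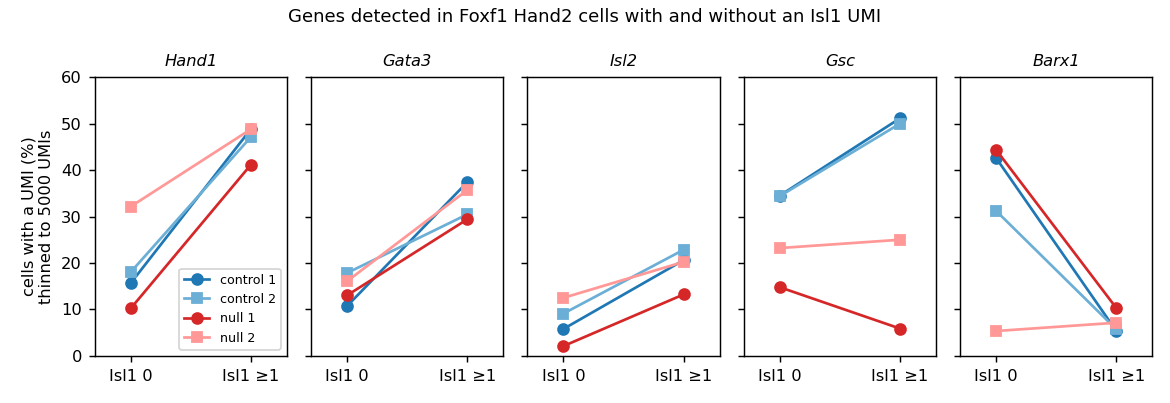
Percent of Foxf1 Hand2 cells with at least 1 UMI of Hand1, Gata3, Isl2, Gsc and Barx1 after thinning to 5000 UMIs, split by whether the cell held an Isl1 UMI, for each library. Hand1 lies higher in Isl1 cells of all 4 libraries, and Barx1 lower in control 1 (5.34% against 42.6%), control 2 and null 1.

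Ptch1 was found in 61.1% of Isl1 members and 55.9% of the others in control 1, in 71.0% and 60.4% in control 2, in 48.5% and 34.9% in null 1 and in 56.0% and 56.3% in null 2. Dlx5 was found in 30.5%, 30.0% and 54.9% of Barx1 members in control 1, control 2 and null 1 and in 4.35%, 4.40% and 12.8% of the rest. In null 2 only 12 members held Barx1 and 1 of them Dlx5.

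By genotype, within the Foxf1 Hand2 cells, no gene passed. Of 12572 genes edgeR called 0 at an adjusted p under 0.05, 1111 (8.84%) had an unadjusted p under 0.05, and DESeq2 called 41. The spread between libraries of a genotype was large (median SE 0.28 on the log2 scale), and leaving out 1 library changed the count to 66 without control 1, 8 without control 2, 708 without null 1 and 1047 without null 2. The count without null 1 compares libraries of 1 kit, with a single null library assumed to vary like the controls. These values do not show that the genotypes are alike.

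Of the markers within members, Hand1 changed by 0.17, SE 0.30, Isl1 by 0.26, SE 0.32, Gata3 by 0.23, SE 0.25, Ptch1 by -0.48, SE 0.28 and Cxcl12 by 0.31, SE 0.24 on the log2 scale, none with an edgeR adjusted p under 0.05. Null 1 was the lowest and null 2 the highest library for Isl1, Isl2 and Hand1, on both sides of the controls. Isl1 is also a gene of neurons, and the neuronal gene Tubb3 was found, after thinning, in 44.9% of null 2 members against 8.29% to 12.8% in the other 3 libraries. Isl1 was likewise found in 14.3% of null 2 Sox10 cells against 4.41% to 10.2%, at the same depth, and the part of neuronal RNA in this split was not tested. The same split between the null libraries was seen for Tgfb2, Osr1 (28.5, 33.5, 7.71 and 36.4 CPM) and Aldh1a2, and in the opposite direction for Barx1 and Dlx5. At 2-fold beyond both controls on opposite sides there were 4 genes of 6650 with null 1 low and null 2 high and 2 with the reverse.

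In some listed genes the null libraries lay together, beyond the range of the controls. They are named after their values were seen and none passed. Gsc stood at 126 and 123 CPM in the controls and 26.8 and 65.3 CPM in the null libraries (log2 fold change -1.56, SE 0.35, edgeR adjusted p = 0.45). Emx2 stood at 3.75 and 3.92 CPM in the controls and 0.186 and 0 CPM in the null libraries (log2 fold change -4.91, SE 0.77, edgeR adjusted p = 0.2), and the BMP antagonist Grem1 at 5.84 and 6.34 CPM in the controls and 0.279 and 0.381 CPM in the null libraries (log2 fold change -4.29, SE 0.51, edgeR adjusted p = 0.066). The WNT modulator Dkk2 stood at 6.5 and 5.62 CPM in the controls and 0.743 and 1.52 CPM in the null libraries (log2 fold change -2.59, SE 0.45, edgeR adjusted p = 0.32). Crabp1 stood at 179.8 and 281 CPM in the controls and 507 and 639.6 CPM in the null libraries (log2 fold change 1.22, SE 0.28, edgeR adjusted p = 0.45), the 1 of these 5 that was higher in the null libraries. DESeq2 called all 5.

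By list, all 13 Hox genes tested lay above 0, with a median of 0.75 against -0.01 over all genes, and all 8 neural genes, with a median of 1.59; 0 of either list passed. Hoxb4 stood at 18.9, 20.5, 15.7 and 53.5 CPM and Hoxb3 at 21.7, 18, 36.8 and 54.9 CPM, the last with both null libraries above both controls. Of 9 TGF-beta and PDGF genes 8 lay below 0 (median -0.22) and of 10 BMP targets 9 above 0 (median 0.30), again with 0 called. The hedgehog list had 8 of 11 below 0 with a median of -0.12. Proliferation genes had 7 of 12 above 0, with a median of 0.16. Neural transcripts were highest in null 2, as given above, and their part in these values was not tested. Null 1 was above both controls for Hoxb3 and below both for Hoxb4. After thinning Hoxa2 was found in 38.9% of null 1 members against 27.6% in null 2 and 22.9% and 22.7% in the controls.

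An interaction term of class and genotype, with the library as a block, asked whether the members' null minus control difference was unlike that of the other mesenchymal cells. Of 15374 genes 95 passed (0.618%), 55 of them higher (0.358%) and 40 lower (0.260%) in the members' change than in the other cells' change. Arch patterning genes gave 5 of 18 higher and 0 lower, and no other list gave more than 2 calls in 1 direction. In other mesenchymal cells 14 of 16122 genes passed by genotype (0.0868%), 1 higher (0.00620%) and 13 lower (0.0806%), Gsc and Emx2 among the lower ones (-3.01 and -7.13).

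The Dlx genes, which pattern the arches from proximal to distal, led. Dlx3 stood at 10.9 and 10.9 CPM in the controls and 16.4 and 1.14 CPM in the null libraries in the members and at 23.7 and 25.5 CPM in the controls and 3.81 and 0.489 CPM in the null libraries in other mesenchymal cells (interaction log2 fold change 3.25, SE 0.20, edgeR adjusted p = 0.00067). Dlx5 stood at 43.2 and 30.9 CPM in the controls and 89 and 2.67 CPM in the null libraries in the members and at 73.4 and 61.4 CPM in the controls and 22.5 and 2.26 CPM in the null libraries in the other cells (interaction log2 fold change 2.74, SE 0.24, edgeR adjusted p = 0.0036). Null 1 members exceeded both controls whereas null 1 other cells lay below them, and null 2 was low in both classes. In Hand2 cells without Foxf1, Dlx5 was found in 57.1% and 41.2% of cells in the controls and 56.5% and 16.2% in the null libraries. In all other mesenchymal cells the shares were 44.3%, 40.2%, 17.3% and 3.99%. The interaction was not tested against the Hand2 cells without Foxf1. Dlx4, Dlx6 and the antisense Dlx6os1 gave 3.12, 2.49 and 3.05. Dlx6os1 (chr6:6820189-6871592) overlaps Dlx6 (chr6:6863334-6868568) on the opposite strand and is next to Dlx5, so these are not separate loci. Without null 1 none of the 5 Dlx values passed: Dlx3 was at 2.40 (adjusted p = 0.097 in edgeR), Dlx5 at 1.12 (0.26) and Dlx6 at 0.77 (0.56), and Dlx4 and Dlx6os1 changed sign. With DESeq2 on all 4 libraries Dlx5 (2.15, adjusted p = 0.32), Dlx6 (1.90, adjusted p = 0.57) and Dlx6os1 (1.53) did not pass either.

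**Figure D5:**
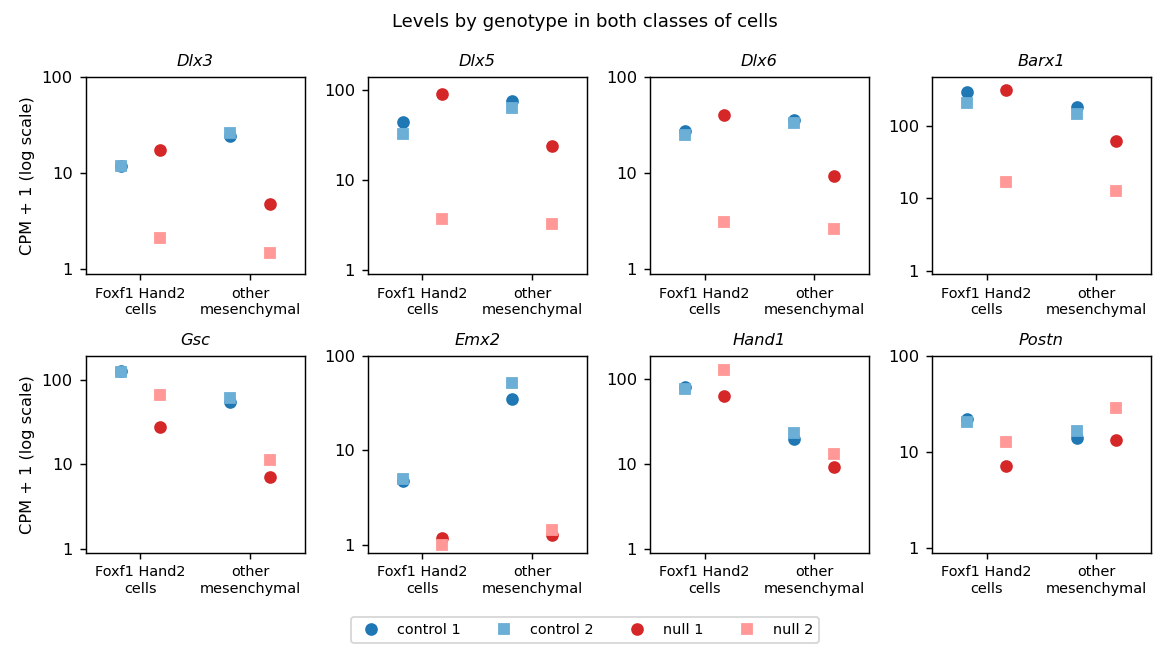
Levels of Dlx3, Dlx5, Dlx6, Barx1, Gsc, Emx2, Hand1 and Postn in CPM plus 1 on a log axis, in Foxf1 Hand2 cells and other mesenchymal cells of each library. For Dlx5 null 1 stands at 89.0 CPM in Foxf1 Hand2 cells and 22.5 CPM in other cells, and null 2 at 2.67 and 2.26 CPM.

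Gsc was lower in the null libraries of both classes, and less so in the members, at -1.56 against -3.01 (interaction log2 fold change 1.31, SE 0.14, edgeR adjusted p = 0.0081). Hand1 stood at 18.8 and 22.6 CPM in the controls and 8.31 and 12.3 CPM in the null libraries in other mesenchymal cells, where both null libraries lay below both controls, but not in the members (interaction log2 fold change 1.25, SE 0.15, edgeR adjusted p = 0.0095). In Hand2 cells without Foxf1, Hand1 was found in 19.0% and 23.0% of cells in the controls and 16.3% and 28.8% in the null libraries. Its call was lost after thinning (0.48, adjusted p = 0.42 in edgeR) and without control 2 (1.07, adjusted p = 0.11). Has2, the hyaluronan synthase of cushions, gave 0.99, and the retinoic acid receptor gene Rarg gave 0.84, not called against mesenchymal cells without Sox10 or the smooth muscle gate (0.79, adjusted p = 0.052 in edgeR). Cxcl12 gave 0.41 and was not called against those cells either (0.30, adjusted p = 0.097 in edgeR), after thinning (0.098, adjusted p = 0.88) or with the cell filter at 200 genes and 5% mitochondrial UMIs.

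Lower in the members' change than in the other cells' change were Postn, Sparc, Cdkn1c and Maf. The matrix list as a whole gave 1 higher (Has2) and 2 lower of 19, with 14 above 0. Postn, a matricellular gene, stood at 21 and 19.5 CPM in the controls and 6.23 and 11.8 CPM in the null libraries in the members and at 13.2 and 15.7 CPM in the controls and 12.3 and 28 CPM in the null libraries in the other cells (interaction log2 fold change -1.58, SE 0.18, edgeR adjusted p = 0.0081). Sparc, a collagen-binding gene, gave -0.88 and the cell cycle inhibitor Cdkn1c -0.99, at 671, 490.4, 319 and 637 CPM in the members and 474, 441, 569 and 923 CPM in the other cells. The transcription factor Maf gave -1.77 and stood at 21.5, 24.5, 4.09 and 19 CPM in the members, with null 1 lowest. After thinning, the calls of Postn, Maf, Has2 and Rarg were lost (-1.27, -1.53, 0.46 and 0.32), and of the 88 genes that then passed 28 were called in the same direction with all UMIs. Without control 2, 11 of 15814 genes passed, 9 of them also called with all 4 libraries; the calls of Gsc, Hand1, Sparc, Maf and Cxcl12 were among those lost.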

How the data were processed

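Droplet single-cell libraries of sorted EGFP cells from E10.5 embryos, 2 per genotype, were analysed. The authors deposited filtered matrices of UMI counts per gene and cell, and the submitters' processing notes name Cell Ranger 6.0.1 and mm10. Replicates were libraries of pooled embryos, so p-values measure the spread between these libraries. The members and the 28 gene lists (302 genes) were chosen with earlier results of these data known.

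Kept cells had 1000 genes or more and no more than 10% mitochondrial UMIs. Sums of counts over each class in a library were tested with edgeR 4.0.16 in R 4.3.3 (TMM, filterByExpr, quasi-likelihood, Benjamini-Hochberg over all genes tested, calls at 0.05), with the library as a block between classes. DESeq2 1.42.0 was an alternative. Doublets were ranked with Scrublet (scanpy 1.11.5) at 0.8% of barcodes per 1000 and kept. Thinning drew 5000 UMIs per cell, leaving out shallower cells, 16 members among them. Positions came from GENCODE M21 and promoters from RefSeq, where 4 of 8 genes sought were found. Genes of the lists could be named, as could the 10 largest rises and falls in each fit (5 in the interaction) at 20 CPM or more with the same direction in every library. Some genes that the rule names are not reported here. Scripts were tested on simulated data.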

Additional observations from a re-analysis of the deposited data

Results flagged for a closer look

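The null minus control difference was not the same in Foxf1 Hand2 cells as in other mesenchymal cells for 20 named genes, by the interaction term in edgeR over all genes (adjusted p from 0.00067 to 0.0497). The values are the log2 change in Foxf1 Hand2 cells minus that in other mesenchymal cells, each over 2 libraries per genotype. Among arch patterning genes and their neighbour the values were 3.25 for Dlx3, 3.12 for Dlx4, 2.74 for Dlx5, 2.49 for Dlx6, 3.05 for Dlx6os1 and 1.31 for Gsc. Hand1 and the chemokine gene Cxcl12 were at 1.25 and 0.41, the retinoic acid receptor gene Rarg at 0.84, and the hyaluronan synthase gene Has2 at 0.99. The other positive values were 1.80 for Prr16, 0.41 for Ccnd1 and 0.53 for Ier2. Negative values were found for the matrix genes Postn (-1.58) and Sparc (-0.88), the growth inhibitors Cdkn1c (-0.99) and Btg1 (-0.55), and the transcription factor Maf (-1.77). Fam181b and Metrnl were at -1.63 and -1.34. Of the 20, 4 were called without control 2, namely Dlx3, Dlx5, Postn and Cdkn1c. Without null 1 the calls of the 5 Dlx genes, Prr16, Rarg and Metrnl were lost. After thinning those of Postn, Maf, Has2, Rarg, Hand1, Cxcl12, Ier2, Btg1, Prr16, Metrnl and Dlx4 were lost, with DESeq2 those of Dlx5, Dlx6 and Dlx6os1, and against mesenchymal cells without Sox10 or the smooth muscle gate those of Cxcl12 and Rarg. Over all genes, 28 of the 95 interaction calls were also made after thinning, in the same direction.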

How the results depend on the processing

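Of 1897 gene values recomputed for 164 pairs of a gene and a comparison, 1722 kept their direction and side of the threshold, 105 lost the call, 46 gained it and 24 changed sign; the cause was not tested. The count against other mesenchymal cells was 2693, and it was 809 after thinning, which sums fewer UMIs, 1367 with the study's threshold (log2 fold change over 0.25 and detection in 10% of cells), and 1580 without control 1 to 2345 without null 1; without a filter on low counts 963 were higher and 1709 lower. By genotype within the members, edgeR called 0 genes (1111 at an unadjusted p under 0.05). DESeq2 called 41, no filter gave 295, thinning 9, at least 2 UMIs of both genes 7, and leaving out 1 library 8 (control 2) to 1047 (null 2), with 66 without control 1 and 708 without null 1. The interaction count of 95 became 140 with DESeq2, 147 with its size factors, 673 without a filter, 217 with doublets removed, 47 with the cell filter at 200 genes and 5% mitochondrial UMIs, and 11 (without control 2) to 920 (without null 2), with 147 without control 1 and 363 without null 1. By genotype in other mesenchymal cells 14 genes passed, 662 with DESeq2, 1213 without a filter, 22 with doublets removed and 17 to 276 without 1 library (276 without control 1, 42 without control 2, 122 without null 1). Against Hand2 cells without Foxf1, 1323 passed, 869 with DESeq2, 379 after thinning, 1980 without a filter (908 higher, 1072 lower) and 740 to 1292 without 1 library (792 without control 1). Against smooth muscle cells 4566 passed, 1573 after thinning and 3315 to 4405 without 1 library.

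The share of members (log2 fold change -1.02) no longer passed over mesenchymal cells (-0.36), with doublets removed (-0.99, adjusted p = 0.067 in edgeR), with the cell filter at 200 genes and 5% mitochondrial UMIs (-0.78), with at least 2 UMIs of both genes (-0.59), and without null 1 or null 2, the values without 1 library ranging from -1.30 to -0.79. The sign changed for Bmp4 against other mesenchymal cells (-0.10) and Barx1 against Hand2 cells without Foxf1 (-0.075) after thinning, and in the interaction for Dlx4 (-1.97 after thinning, and -3.44 without null 1 to 3.35 without control 1) and Dlx6os1 (-6.05 without null 1 to 3.2 without null 2). Values that had not passed also changed sign. Against other mesenchymal cells these were Sema3c (-0.14 with doublets removed, -0.011 against cells without Sox10 or the smooth muscle gate, and -0.22 without control 2 to 0.56 without null 1), Etv5 (-0.42) and Sufu (-0.0028) after thinning, and Hoxa2 (-0.23 without null 1 to 0.010 without control 1). Against Hand2 cells without Foxf1 Hoxb4 ranged from -0.11 without control 2 to 0.13 without null 2, Gsc from -0.0067 without null 2 to 0.27 without control 2, and Bambi from -0.12 without null 2 to 0.035 without null 1. By genotype within members Gata3 was -0.33 after thinning and ranged from -0.047 without null 2 to 0.51 without null 1, Hand1 was -0.063 and ranged from -0.33 to 0.59, and Isl1 was -0.041 and ranged from -0.33 to 0.73. The replicate numbers of the labels are shared by 2 libraries each and mark no common litter or day; same-numbered libraries' deviations from their group means correlated with r = 0.105 over 12572 genes. With the replicate block 263 genes passed by genotype within members and 245 in the interaction, and the share gave -1.04 (adjusted p = 0.12 in edgeR). Depth limits the null 2 members most, with 196 cells and 3 UMIs equal to 0.571 CPM.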
